A study of Mus musculus with 12 samples.

Results

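Complement transcripts were followed in differentiating mouse muscle cells through 2 genes: Cfb, which encodes complement factor B, and Gm16567, an annotated antisense RNA that lies over the complement protease gene C1s1. They were taken by gene symbol, as 2 of the 27942 genes analysed, and were picked with their control and 4-octyl itaconate levels already known. Their difference between the groups is therefore given as a description, without a p-value, and whether they met the rule used for all genes is given only as a count. The cells were C2C12, a single mouse myoblast line whose cells fuse into myotubes when serum is lowered. All libraries came from cells grown in 10% fetal bovine serum and then differentiated for 7 days in 2% horse serum. The control group was left untreated, and the other group received 4-octyl itaconate (OI), an ester of the metabolite itaconate that enters cells, at 25 µmol/L. Each group had 3 libraries, and the labels do not say whether these were separate cultures, so the spread between them may be technical. A second set of 3 control and 3 OI samples was not analysed here.

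The complement system is a cascade of serum proteases that tags and lyses targets and calls in phagocytes. In the classical pathway the C1 complex carries 2 kinds of protease: C1r, which activates C1s, and C1s, which then cleaves C4 and C2. In the alternative pathway factor B binds C3b and, once cut by factor D, supplies the catalytic subunit of the C3 convertase. The liver makes most of the circulating proteins, and fibroblasts, muscle cells and macrophages also make C1r, C1s and factor B, the last strongly after interferon or NF-kB signals.

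Gm16567 (ENSMUSG00000089961) occupies chr6:124530911-124542310 on the plus strand of GRCm38, the assembly also called mm10. It has 3 exons and 576 exonic bases. C1s1 is annotated on the opposite strand from 124530345 to 124542359, and all 576 exonic bases of Gm16567 fall in exons of C1s1. The first exon holds 442 of them, of which 406 are C1s1 coding sequence, the end of the protease. The exons of 84 and 50 bases fall in stretches of C1s1 exons that are not coding. Whether the authors counted by strand is not stated in the sources used here. Reads of Gm16567 and of C1s1 therefore cannot be told apart, and every value of Gm16567 below is a value of this shared sequence. The same limit holds for exonic bases that other antisense genes named below share with genes on the other strand. C1s1 itself was not analysed here. C1s2, a second C1s gene of the mouse, matches the antisense transcript at 93.5% identity over 77.1% of its length, and was not analysed here either.

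**Figure D1:**
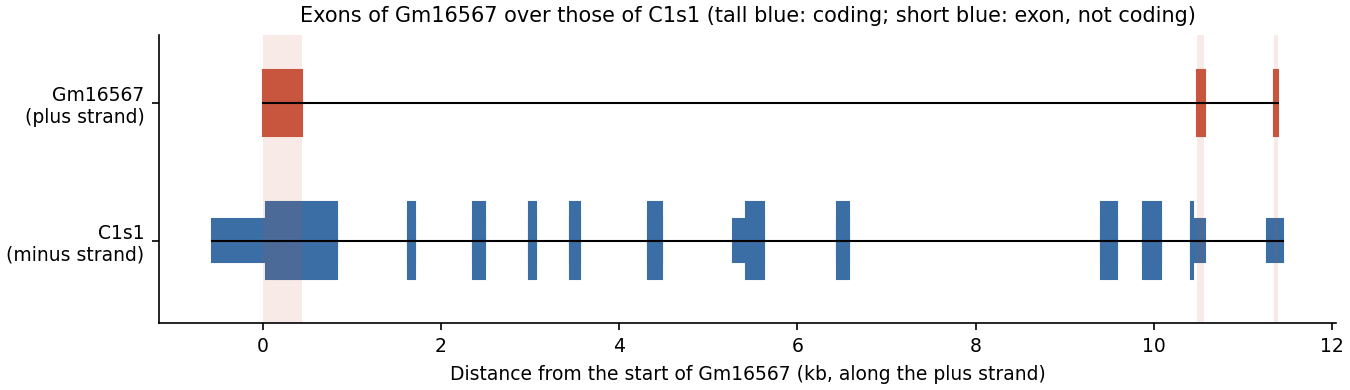
Exons of Gm16567 (red, plus strand) and C1s1 (blue, minus strand) by distance in kb from the start of Gm16567, with pale bands marking the Gm16567 exons. Each of the 3 red exons stands over a blue one, and the first, of 442 bases, stands over the end of the coding sequence.

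The shared sequence is shown at the end of the C1s1 coding sequence, chr6:124530944-124531033, as each strand would be transcribed, because these 90 bases stand for reads that belong to either gene unless strand is known. The capitals mark the C1s1 stop codon or its complement. The junctions between Gm16567 exons are shown because they are the stretches at which the spliced antisense RNA departs from C1s1, with the second of each pair of joined exons in capitals. None of the 5 annotated C1s1 transcripts holds either junction on either strand (0 of 5 for each). The sequences are from the GENCODE M21 transcripts.
Gm16567, plus strand: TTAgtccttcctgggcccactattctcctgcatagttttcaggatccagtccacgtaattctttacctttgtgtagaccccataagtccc
C1s1, minus strand: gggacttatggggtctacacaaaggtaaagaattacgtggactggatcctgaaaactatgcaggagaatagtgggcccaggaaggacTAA
Gm16567, exons 1 and 2 joined: ttgtactctgaggagGTAAAGGGCAGTCAG
Gm16567, exons 2 and 3 joined: accacccagggctcaTTGTTACCTTCAGGA

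Signal at Gm16567 was high in untreated differentiated cells and lower with OI in every library. The deposited unit is FPKM, a read density scaled to gene length and library size. The control libraries, in replicate order, had Gm16567 levels of 54.3, 50.9 and 57.6 FPKM, and the OI libraries had 13.8, 15.2 and 15.5 FPKM. All control libraries lay above all OI libraries, and the lowest control library was 3.29 times the highest OI library. The group means were 54.2 ± 3.37 and 14.8 ± 0.88 FPKM (SD, n = 3 each), a ratio of 3.65 between the mean FPKM levels of control and OI. On the log2(FPKM + 1) scale, which understates differences of low genes, the fold change of OI against control was -1.80 ± 0.08 (SE).

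Library sizes recovered from the steps of the FPKM values ran from 24.4 M to 36.3 M reads. The steps do not show whether reads or fragments were counted, and reads is written here for both. Gm16567 had 764, 894 and 995 reads in control and 256, 318 and 229 reads in OI. Counting error alone is then 3.17% to 3.62% of the value in control, below the spread of 6.22% between the control libraries (SD over the mean). In OI it is 5.61% to 6.61%, near the spread of 5.95%.

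Among annotated antisense RNAs, the Gm16567 level stood near the top in control cells. By mean FPKM in control it ranked 4 of the 334 antisense genes tested, where a gene was tested if 3 or more libraries reached 1 FPKM, and by mean FPKM in OI it ranked 28. An overlap as complete as this one is shared by 37 of the tested antisense genes, which lie wholly inside exons of a coding gene on the other strand. Within those 37 it was second by control level, after Gm17035, and rank 13 by OI level. Their log2 fold changes had a median of -0.01, and 20 of the 37 were negative. That of Gm16567 was at the low end of the range, which ran from -1.80 to 0.44, with Gm15655 next at -0.86. Gm16567 was chosen for its difference, so its place in this order is a description.

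**Figure D2:**
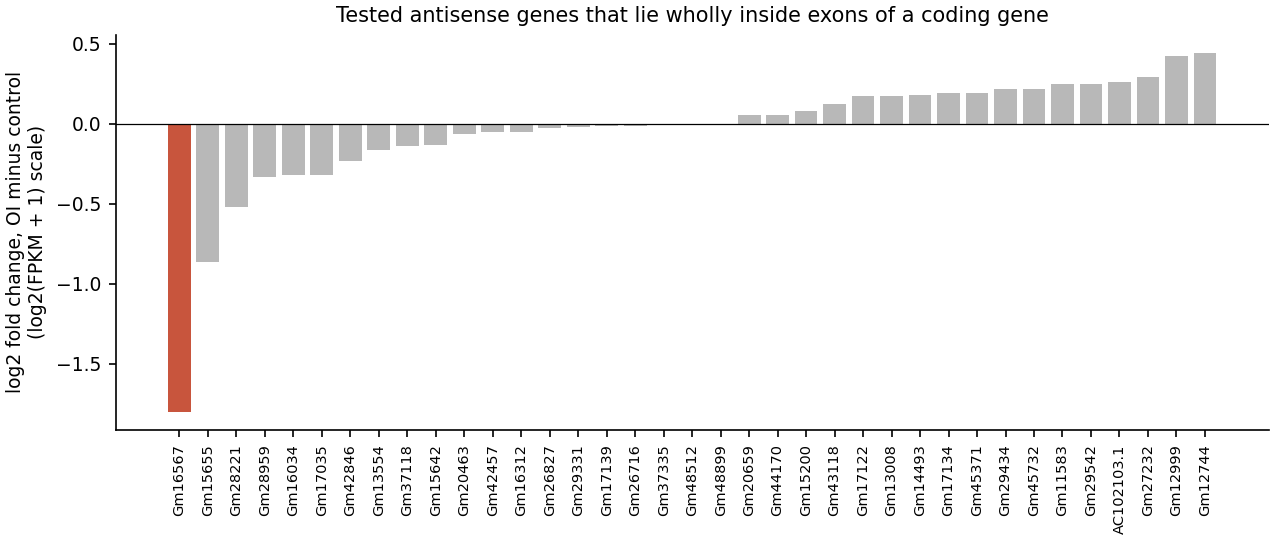
Log2 fold change of OI against control, on the log2(FPKM + 1) scale, for the 37 tested antisense genes that lie wholly inside exons of a coding gene on the other strand, in order. Gm16567 (red) is at -1.80, and the others (grey) run from -0.86 to 0.44.

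Cfb (ENSMUSG00000090231) occupies chr17:34856374-34862518 on the minus strand, in the class III region of the major histocompatibility complex. It was a low-level transcript in these cells. The control libraries, in replicate order, had Cfb levels of 1.62, 1.67 and 1.53 FPKM, and the OI libraries had 0.73, 0.96 and 0.90 FPKM. The groups did not overlap, and the lowest control library was 1.60 times the highest OI library. Means were 1.61 ± 0.07 and 0.86 ± 0.12 FPKM (SD, n = 3 each), a ratio of 1.87 between the mean FPKM levels of control and OI. The log2 fold change was -0.49 ± 0.10 (SE) on the log2(FPKM + 1) scale. At such a low level the added 1 FPKM compresses the difference, and the log2 fold change was -0.84 with a pseudocount of 0.1 and -0.17 with a pseudocount of 5.

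Each Cfb value rested on few reads. The recovered numbers, which are approximate for this gene of many exons, were 109, 140 and 127 reads in control and 64, 95 and 63 reads in OI. Counting error alone is 8.44% to 9.58% of the value in control, above the spread of 4.28% between the control libraries. In OI it is 10.2% to 12.6%, near the spread of 13.8%. Cfb reached 1 FPKM in the control libraries only, so it entered the set of tested genes through the group in which it was higher, like 15 other tested genes. By mean FPKM in control it ranked 251 of the 310 protein-coding genes tested.

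Gm20547, a read-through model that joins Cfb to the neighbouring gene C2, shares 2246 of the 2825 exonic bases of Cfb on the same strand. It was assigned 2, 0 and 1 reads in control and 0, 0 and 1 reads in OI. Mir6972, a microRNA gene of 64 bases on the same strand, lies directly beside a Cfb exon and shares no exonic base with it. It was at 1.92, 3.07 and 2.08 FPKM in control and at 1.46, 1.72 and 2.43 FPKM in OI, on 3 to 6 reads a library. Its groups overlapped (limma adjusted p = 0.583, log2 fold change -0.22 ± 0.18). No near-identical transcript of another gene was found for Cfb besides Gm20547.

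**Figure D3:**
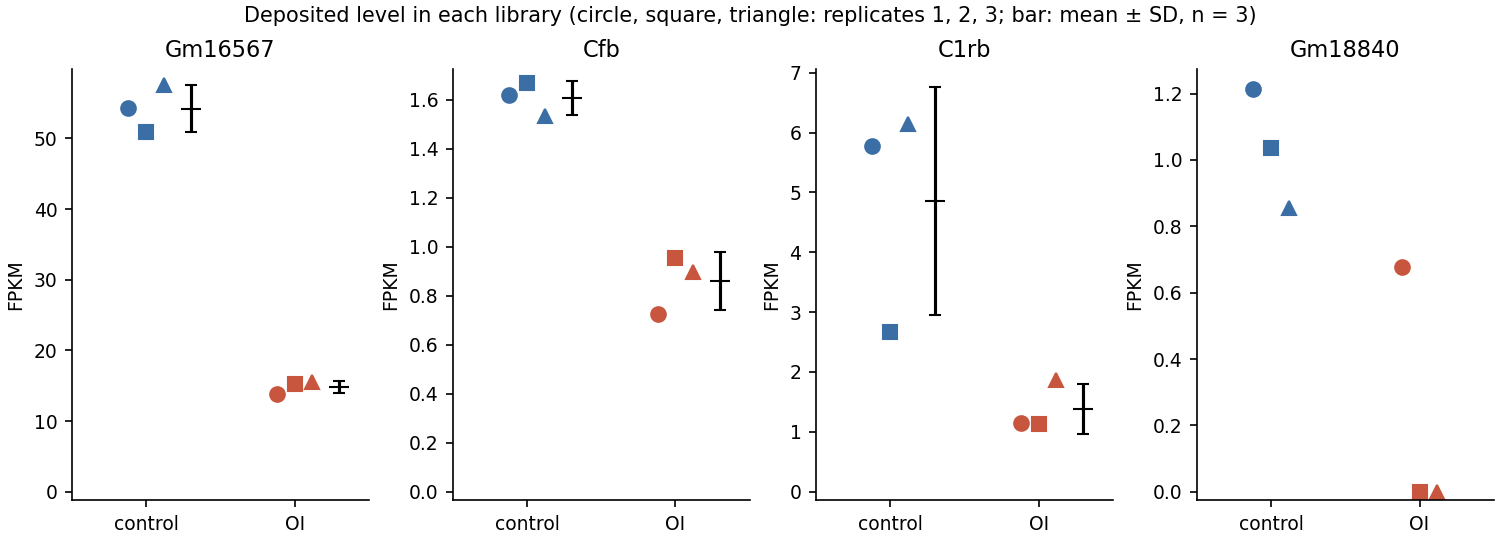
FPKM in each of the 3 control (blue) and 3 OI (red) libraries for Gm16567, Cfb, C1rb and the pseudogene Gm18840, with mean ± SD for the first 3. Control libraries lie above OI libraries in each panel, and control replicate 2 of C1rb, at 2.67 FPKM, is apart from the other controls.

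By the rule used for all genes, a limma adjusted p under 0.05, 1 of the 2 genes (Gm16567) was called, against 2.76% of all 1737 genes tested (1.61% lower and 1.15% higher in OI). In both the control libraries all lay above the OI libraries, which was the case for 12.5% of the tested genes (23.6% had no overlap in either direction). Since the genes were chosen on this contrast, nothing is read from these counts. The size of the difference was not the same for both. The Gm16567 level was 30.4 to 37.5 times the Cfb level in the control libraries and 15.9 to 19 times in the OI libraries, both in FPKM, and these ranges do not overlap.

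The C1r and C1s genes lie together on chromosome 6, and the reads at another of them were also lower with OI, without passing the test. C1rb, a second mouse gene for C1r, begins 28.0 kb beyond the end of Gm16567 (chr6:124570294-124581171). It was at 5.78, 2.67 and 6.14 FPKM in control and at 1.14, 1.14 and 1.86 FPKM in OI. The groups did not overlap, but control replicate 2 lay below the other controls (4.86 ± 1.91 and 1.38 ± 0.42 FPKM, SD, n = 3 each). C1rb differed by -1.26 ± 0.28 (SE) on the log2 scale, at a limma adjusted p of 0.0998, with all 3 OI libraries below every control library. Leaving out control replicate 2 gave -1.56 and a limma adjusted p of 0.022. Over the other alternatives that gave a value, the limma adjusted p ran from 0.0853 to 0.859.

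C1rb values cannot be assigned to C1rb alone. Its transcript is 97.9% identical to that of C1ra, the neighbouring C1r gene, over its full length, and C1ra was not analysed here. The same holds for Gm18840, a pseudogene between Gm16567 and C1rb that is 96.6% identical to C1ra. Gm18840 had 15, 16 and 13 reads in control, 11 reads in OI replicate 1, and was listed at 0 in OI replicates 2 and 3. It was below the level for testing. The C1rb level relative to Gm16567 overlapped between the groups, at 5.25% to 10.7% in control and 7.46% to 12% in OI. C1rb varied widely between libraries, by 39.2% of its mean in control and 30.2% in OI (SD over the mean). Nothing is therefore read from this overlap.

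**Figure D4:**
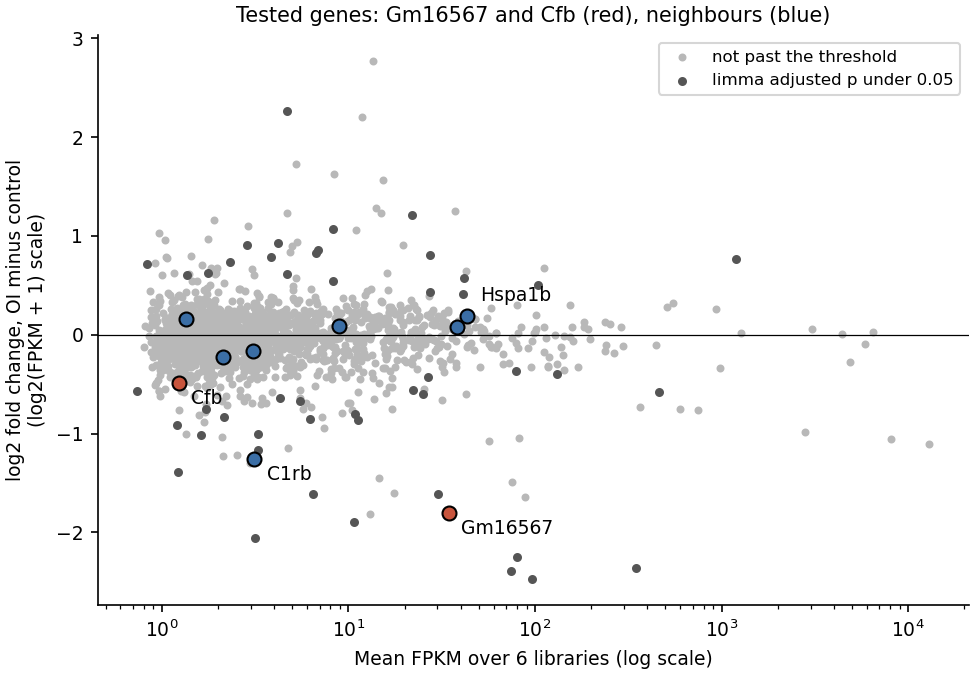
Log2 fold change of OI against control on the log2(FPKM + 1) scale against mean FPKM (log axis) for the 1737 tested genes. Gm16567 and Cfb are red, their tested neighbours within 250 kb are blue, and dark points passed a limma adjusted p of 0.05. Gm16567 (-1.80) is among the lowest points, C1rb is at -1.26, and the other neighbours lie near 0.

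Other complement genes could be read in few cases. Of the 55 complement genes listed, which span C1, the mannose-binding lectins, the terminal components, the receptors and the inhibitors, 3 were among the genes analysed. Cfb and C1rb were tested, and Cfhr3, a factor H-related gene annotated as a pseudogene, was listed at 0 in all libraries. Through shared exonic bases 5 further genes could be linked to the list without Gm16567. They were antisense or read-through models at Hc, C2, Cd55, Cd55b and Cd46, all below the level for testing. Gm15674, antisense to Cd55b, a membrane regulator that shortens the life of the convertases, was at 0.40, 0.35 and 0.31 FPKM in control and at 0.19, 0.28 and 0.27 FPKM in OI. Of the 7 listed or linked genes besides Cfb and Gm16567, 5 were above 0 in any library, and in 2 of these (C1rb and Gm15674) the control libraries all lay above the OI libraries. Among all 10948 genes above 0 in any library that share was 6.91%, and the opposite order, found in none of the 5, was 3.76%. Most genes of this background lie below the level for testing. Among the 1737 tested genes, C1rb included, the share with all control above all OI libraries was 12.5%. With limma, 0 of the 1 tested gene among the 7 passed at an adjusted p of 0.05, and 1 was under 0.05 unadjusted.

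Interferon and NF-kB are known to induce Cfb, and few genes that answer to them could be read. Of 74 such genes listed, 3 were among the genes analysed, Psmb9, Gbp6 and Gbp10, and all were below the level for testing. Psmb9, an immunoproteasome subunit, was at 0.09, 0.07 and 0.11 FPKM in control and at 0.05 FPKM in each OI library, on 4 to 9 reads a library. Gbp6, a guanylate-binding protein, was at 0.12, 0.14 and 0.12 FPKM in control and at 0.03, 0 and 0.07 FPKM in OI. Gm17334, which overlaps exons of the transcription factor gene Irf1 on the other strand, had 5, 11 and 6 reads in control and 2, 1 and 3 reads in OI. With genes linked through exonic bases there were 13 above 0 in any library. In 4 of them (Psmb9, Gbp6, Gm17334 and Gm47079, which overlaps Icam1) the control libraries all lay above the OI libraries. In none was it the opposite, and the background is the 6.91% and 3.76% given above. Gm47079 was at 0.07, 0.08 and 0.06 FPKM in control and at 0.05, 0 and 0 FPKM in OI. At such levels library size alone can set the order, so nothing is read from this count. The 1 linked gene that was tested, Gm43109 at the adhesion gene Vcam1, differed by -0.21 ± 0.14 on the log2 scale (limma adjusted p = 0.505), and its groups overlapped.

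Genes beside Cfb on chromosome 17 did not pass the test in either direction. Within 250 kb, 6 other genes were tested, with a median log2 fold change of 0.08 against -0.02 for all tested genes, and 1 of them had an unadjusted limma p under 0.05. The heat shock protein gene Hspa1b had mean levels of 40.4 ± 0.30 FPKM without and 46.4 ± 0.35 FPKM with OI (SD, n = 3; limma adjusted p = 0.156, log2 fold change 0.19). Its neighbour Hspa1a was at 8.63 ± 0.18 and 9.21 ± 0.26 FPKM (limma adjusted p = 0.576, log2 fold change 0.08). In both the OI libraries lay above the control libraries, the opposite order to Cfb. Whether reads of Hspa1a and Hspa1b can be told apart was not tested. Of the 15 neighbours above 0 in any library, most of them below the level for testing, these 2 alone had this order. None had the order of Cfb. Among all genes above 0 in any library the shares were 3.76% and 6.91%. For 1110038B12Rik, Stk19-ps1, Gm20481 and Mir6972 the groups overlapped. Gm20481 lies within the span of Hspa1a on the other strand, so reads there may belong to either gene. Around Gm16567, C1rb was the only tested gene within 250 kb. Of the 11 neighbours there above 0 in any library, 3 (Gm23547, C1rb and Gm18840) had all control above all OI libraries. None had the opposite order, and the background is again 6.91% and 3.76%. Gm23547, a small nucleolar RNA gene, was at 0.91, 0.24 and 0.37 FPKM in control and at 0.11, 0.10 and 0.14 FPKM in OI. For so short a gene these values rest on very few reads a library, so nothing is read from its order.

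Among all tested genes, those most like Gm16567 in pattern were ranked by the distance between profiles. Likeness was the root mean square difference of log2(FPKM + 1) over the 6 libraries, each gene centred on its own mean. The closest was AC157554.3, antisense to the myoglobin gene Mb, at 0.15 on the log2 scale, followed by Gm15851 over the matrix proteoglycan gene Prelp (0.16) and Gm26771 over the Wnt modulator gene Sfrp2 (0.17). Mylf-ps, a myosin light chain pseudogene (0.18), and the imprinted RNA H19 (0.25) came next. The median over all tested genes was 0.91. Gm16567 was chosen for its difference, so this order mostly picks genes with a like difference. The median mostly reflects the size of that difference, and nothing is read from it. The same limit holds for Cfb below. Mean AC157554.3 levels were 5.69 ± 0.70 FPKM without and 0.61 ± 0.20 FPKM with OI, and those of Gm15851 were 17.3 ± 0.65 and 4.00 ± 1.05 FPKM (SD, n = 3). AC157554.3, Gm15851 and Gm26771 share exonic bases with Mb, Prelp and Sfrp2, so reads there may belong to either gene.

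Genes most like Cfb on the log2(FPKM + 1) scale were Gm17473, antisense to the angiopoietin gene Angpt1 (0.07), the linker histone gene H1f0 (0.08), AC149090.1 (0.08), 4933407K13Rik (0.08) and Eid1, an inhibitor of cell differentiation (0.08), against a median of 0.30. Mean Gm17473 levels were 3.87 ± 0.24 FPKM without and 2.58 ± 0.36 FPKM with OI, and those of Eid1 were 17.1 ± 0.61 and 13.4 ± 0.68 FPKM (SD, n = 3). The added 1 FPKM compresses low genes, so a like log2 difference stands for unlike ratios in FPKM: the means were 1.08 and 0.40 FPKM for 4933407K13Rik and 149.6 and 113 FPKM for H1f0. No gene is on both lists of 5, which follows from the unlike log2 fold changes of Gm16567 and Cfb under this distance.

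Of 24 muscle markers, 2 were among the genes analysed, the troponin gene Tnnc1 and H19, and the level of the others was not analysed here. In both the control libraries all lay above the OI libraries, against the 12.5% of tested genes given above. Their summed level was 241 to 276 FPKM in control and 47.8 to 55.1 FPKM in OI. Gm47302, in an exon of the fibroblast collagen gene Col3a1, was at 490 to 597 FPKM in control and 342 to 393 FPKM in OI, the same order. The other genes linked to fibroblast markers were all at Pdgfra. Gm42802 and Gm42803 were listed at 0 in all libraries, and the groups of Mir7025 overlapped. None of the 9 fibroblast markers was itself among the genes analysed. Of the 10 macrophage markers none was read directly. A second gene record named Itgam, which shares 3450 exonic bases with the marker gene on the same strand, was listed at 0 in all 6 libraries. The part of these markers in the Cfb and Gm16567 difference was not tested. In RNA from whole cultures, fewer cells of a type and less RNA per cell cannot be told apart.

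Control replicate 1 stood apart in composition, since the genes analysed took 23.9% of its reads and 5.25% to 5.77% in the other libraries. Without it the log2 fold changes were -1.80 for Gm16567 and -0.49 for Cfb, as with it.

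**Figure D5:**
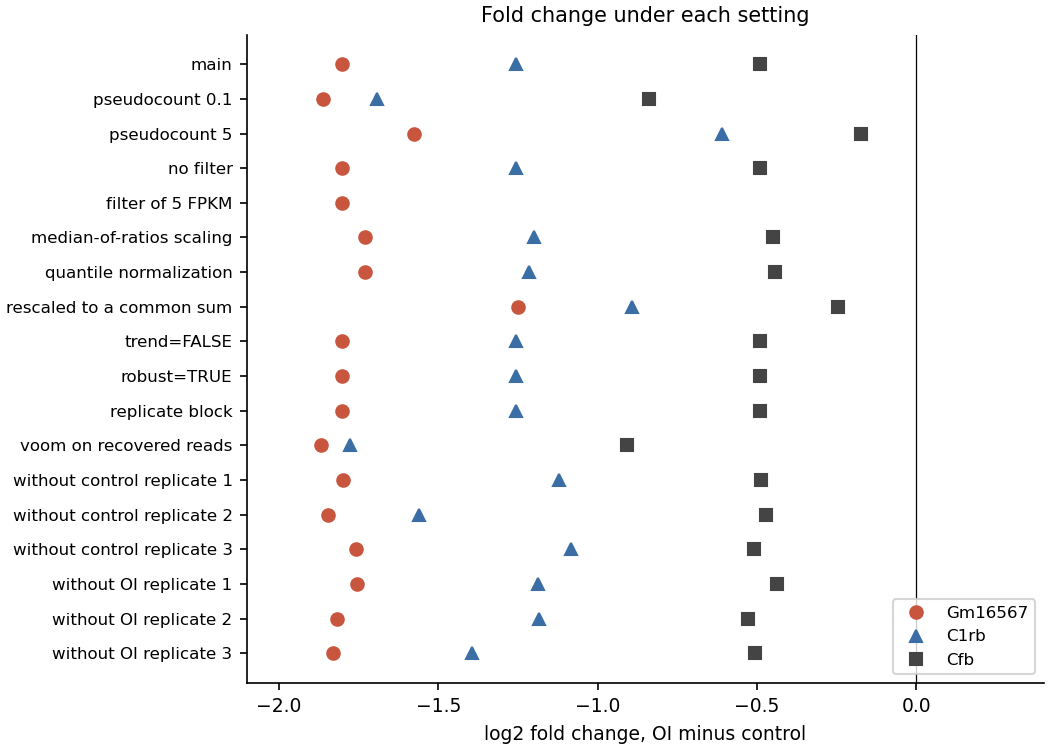
Log2 fold change of OI against control for Gm16567 (red circles), C1rb (blue triangles) and Cfb (dark grey squares) as reported and under 17 other settings, of which the filter of 5 FPKM gives a value for Gm16567 alone among the 3. All points are below 0, and over the other settings Gm16567 runs from -1.87 to -1.25 and Cfb from -0.91 to -0.17.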

How the data were processed

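Values of the 6 libraries are FPKM per gene as deposited by the authors, 1 table per library. The submitters' processing notes name build mm10, StringTie 1.3.3b, HISAT2 2.1.0 and cutadapt 2.7. RNAiso Plus extraction and a TruSeq RNA kit were used, per the labels' protocols. Of 27943 rows 1 was left out because its position or length was not a number. Exons came from GENCODE M21, in which 27864 of the identifiers were found. Library sizes were recovered from single-exon genes, where FPKM times length fell on whole multiples of 1 step (100% within 0.01).

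Genes at 1 FPKM or more in at least 3 libraries were tested with limma 3.58.1 (R 4.3.3) on log2(FPKM + 1), trend=TRUE, two-sided, Benjamini-Hochberg adjusted over 1737 genes, threshold 0.05. Near-identical transcripts were sought with BLAST+ 2.17.0 (megablast, at least 90% identity over at least 80%). Figures used Matplotlib 3.10.9. Named were the members, genes sharing exonic bases with them or with C2 or C1s1, tested or linked genes of fixed lists, tested neighbours within 250 kb, and the 5 most alike genes. Genes below the level for testing that the text names (Gm18840, Gm23547, Gm15674, Psmb9, Gbp6, Gm17334, Gm47079) were chosen after their values were seen. The members and lists were chosen with earlier results of these data known.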

Additional observations from a re-analysis of the deposited data

How the results depend on the processing

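Gm16567 had a negative log2 fold change in all 17 alternatives, from -1.87 to -1.25, and met the rule for a call in 16, given as a description. In those 16, calls over all genes ran from 14 of 10948 (no filter) to 62 of 2997 (limma voom on recovered reads). The exception was rescaling to a common sum over the genes analysed, with -1.25. Such a sum depends on the share of reads that these genes took. It was 23.9% in control replicate 1 and 5.25% to 5.77% in the other libraries. That scaling moved the median of all tested genes to 0.36 on the log2 scale, from -0.02, and left 7 calls (6 higher, 1 lower) in place of 48 (20 higher, 28 lower), none in the complement list (0). Under it 3 genes that were past the threshold in neither fit turned positive, Gm20481 to 0.21, Mir6972 to 0.10 and Gm43109 to 0.029. With a pseudocount of 5 the value of Gm16567 was -1.58. Cfb was negative in the 16 alternatives that gave a value (a filter of 5 FPKM left it out) and met the rule in 2, trend=FALSE and limma voom on recovered reads, where the complement list had 2 calls each, against 1 as reported. Its log2 fold change was -0.84 with a pseudocount of 0.1, -0.17 with 5, -0.245 rescaled to a common sum and -0.91 on recovered reads. Without 1 library each, Gm16567 ran from -1.85 to -1.75 and Cfb from -0.53 to -0.44. The complement list then had 1 to 2 calls, Gm16567 itself among them each time. The neighbours of Gm16567 had 0 to 1. In both sets the further call was C1rb, without control replicate 2. Calls over all genes ran from 15 to 27 without 1 library, and were 14 (3 higher, 11 lower) with no filter on low values. With the replicate number as a block they were 17 (3 higher, 14 lower), Gm16567 among them. Same-numbered libraries did not deviate together (correlations 0.0469, 0.138 and -0.084, and 1 of 3 controls was closest to the OI library of its number), so the numbers were not taken as pairs. Cfb rested on 63 to 140 reads a library and Gm16567 on 229 to 995.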
